A study of Rattus norvegicus with 12 samples.

Results

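A set of 10 genes of the vascular endothelial growth factor (VEGF) and angiopoietin system were followed in cultured rat vascular smooth muscle cells exposed to angiotensin II (Ang II), the vasoconstrictor peptide of the renin-angiotensin system. They are the ligand genes Vegfa, Vegfb, Vegfc and Angpt1, the receptor genes Flt1, Kdr and Tek, the co-receptor genes Nrp1 and Nrp2, and Esm1, which encodes the secreted proteoglycan endocan. These 10 genes are among 14506 genes named on the array (Affymetrix Rat Gene 1.0 ST). They were listed by name, and each has 1 probe set with a single gene symbol, so that the choice of the brightest probe set by its mean over 12 arrays did not come into play. The set was also chosen by measured values, since Flt1 and Esm1 were singled out for their strong rise against untreated cells in these data. Their values are therefore given as a description, with standard errors and no p-value, and the tests concern the other 8 genes. Those 8 genes and the lists used below were also chosen with earlier results of these data known.

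The cells came from the aorta of Sprague-Dawley rats, were grown in 10% serum, were kept for 48 h without serum and carry no transgene or deletion that the labels name. There are 4 groups of 3 arrays: an untreated group, and groups given 100 nM Ang II for 6, 12 or 24 h, as the sample titles and design text give the times. The treatment protocol names other hours for the earlier times, and the titles were followed here. Replicates are termed biological in the labels, but whether each came from its own rat or dish is not stated, and p-values then reflect only how much these arrays vary, which may be technical. With 3 arrays per group, precision is limited. Untreated cells kept in culture as long as the treated ones were not analysed here, so Ang II and time in culture cannot be told apart in a comparison with untreated cells.

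VEGF proteins are secreted ligands that bind receptor tyrosine kinases on endothelial cells and drive the growth and permeability of vessels. KDR carries most of the growth signal of VEGF-A, whereas FLT1 binds VEGF-A, VEGF-B and placental growth factor tightly, signals weakly, and also exists as a secreted form that traps ligand. Neuropilins are co-receptors shared by VEGFs and class 3 semaphorins, and angiopoietin 1, made by mural cells, activates the endothelial receptor TEK. Smooth muscle cells are known mainly as a source of such ligands, and ESM1 is known as a product of activated endothelial cells.

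The labelled cell type was set against marker genes. All 11 measured smooth muscle markers, among them Acta2 and Myh11, lay above the array's median (7.22 to 7.32 in log2 expression) on all 12 arrays. Of 18 endothelial markers, 13 lay below the median on all 12 arrays, including Pecam1, Cdh5 and Emcn, which define the type. Esam, Egfl7 and Erg lay above it throughout, and Sox7 and Nos3 on some arrays. The mean log2 expression of the endothelial list was 6.57 to 6.59 in untreated cells and 6.55 to 6.64 at 6 h. It was 6.56 to 6.68 at 12 h and 6.71 to 6.73 at 24 h. The untreated range thus overlapped those at 6 h and 12 h and lay below that at 24 h. The part of endothelial cells in the results was not tested. Of 11 leukocyte markers 10 lay below the median on all arrays. Some markers of neighbouring mesenchymal types were also high. On all 12 arrays 7 of 10 fibroblast markers (among them Col1a1, Col3a1 and Mfap5) lay above the median. So did 5 of 8 pericyte markers (among them Pdgfrb and Cspg4). Fap, Pi16 and Tcf21 of the fibroblast list and Rgs5 and Higd1b of the pericyte list lay below it on all 12. Kcnj8, a pericyte marker, lay below it on 7. The mean log2 expression of the fibroblast list was 9.57 to 9.59 in untreated cells, 9.25 to 9.32 at 6 h, 9.24 to 9.30 at 12 h and 9.18 to 9.23 at 24 h, and the part of such cells in the results was not tested. In such bulk RNA, fewer cells of a type and less RNA per cell cannot be told apart.

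**Figure D1:**
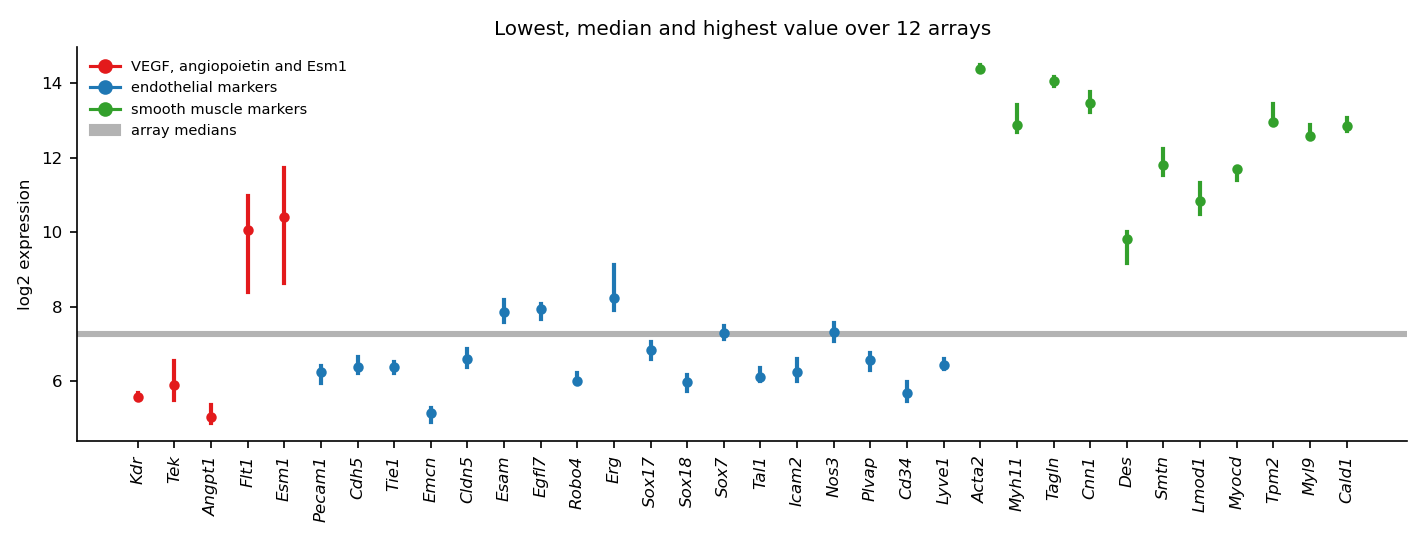
Log2 expression (vertical axis) of 5 of the genes described, 18 endothelial and 11 smooth muscle markers; each line runs from the lowest to the highest of 12 arrays with the median as a point, and the grey band spans the array medians (7.22 to 7.32). Flt1 and Esm1 lie above the band on every array, while Kdr, Tek, Angpt1 and 13 of the endothelial markers lie below it on all 12.

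The upstream sequences of Flt1 and Esm1 are shown because the RNA of both genes rose and declined together. Each run is the 250 bases before the annotated start in RefSeq's rat assembly GRCr8, 5′ to 3′ on the gene's strand, with capitals marking matches to any of 11 motifs searched on both strands. Flt1 lies on chromosome 12 (chr12:12333180-12333429, plus strand) and Esm1 on chromosome 2 (chr2:46609003-46609252, plus strand).
Flt1: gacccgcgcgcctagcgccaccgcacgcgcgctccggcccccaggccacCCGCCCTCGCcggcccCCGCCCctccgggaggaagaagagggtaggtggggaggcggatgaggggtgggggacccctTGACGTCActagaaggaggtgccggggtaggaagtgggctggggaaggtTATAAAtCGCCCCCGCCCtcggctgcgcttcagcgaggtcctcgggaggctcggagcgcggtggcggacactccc
Esm1: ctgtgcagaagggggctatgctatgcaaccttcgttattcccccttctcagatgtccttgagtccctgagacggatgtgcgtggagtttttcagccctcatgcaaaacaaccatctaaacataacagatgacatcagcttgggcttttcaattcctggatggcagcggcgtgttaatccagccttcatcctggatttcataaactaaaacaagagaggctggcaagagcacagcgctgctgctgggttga
The Flt1 window holds 1 cAMP response element (TGACGTCA, starting 124 bases before the start), 2 EGR sites (GCGNGGGCG, starting at 200 and 68 bases), 3 SP1 boxes (GGGCGG, at 201, 185 and 63 bases) and 1 TATA box (TATAAA, at 75 bases). Each EGR site overlaps an SP1 box. Among 33360 distinct windows of the same length in that table, a cAMP response element occurs in 1.6%, an EGR site in 4.3%, an SP1 box in 30.5% and a TATA box in 12.9%. The Esm1 window matched none of the 11 motifs, which further comprised the AP-1 site (TGANTCA, in 6.3% of windows), the hypoxia response core (ACGTG, 16.6%), an ETS site (CCGGAAGT, 3.1%), the E-box (CACGTG, 5.6%), an NFAT core (GGAAAA, 21.6%), a SMAD element (GTCTAGAC, 0.2%) and the CArG box (1.5%). The 2 windows also differ in base composition, with a GC content of 73.2% for Flt1 and 49.2% for Esm1 against a median of 51.6% over all windows. A match is a stretch of letters and not a measured binding site. For the hypoxia response core only the letters ACGTG were searched. The variant GCGTG, which occurs in the Esm1 window, was not. Windows were found for 8 of the 10 genes, with a pair of starts for Vegfa. EGR and SP1 matches were not particular to Flt1. The Vegfb window, with the same GC content of 73.2%, also holds an EGR site and SP1 boxes. SP1 boxes lie upstream of Vegfa, Vegfc and Kdr as well, and not in the windows of Nrp1 and Nrp2. The cAMP response element and the TATA box were matched in the Flt1 window alone.

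Flt1 showed the largest change among the receptors. Its log2 expression was 8.44, 8.41 and 8.39 in the untreated arrays, 10.79, 10.93 and 10.98 at 6 h, 10.69, 10.76 and 10.63 at 12 h, and 9.48, 9.45 and 9.49 at 24 h. Every Ang II array was above every untreated array, and the 24 h arrays lay between the untreated and the earlier ones without overlap. Flt1 RNA was 5.6-fold higher than in untreated cells at 6 h, 4.85-fold at 12 h (log2 change 2.28 ± 0.05, SE, n = 3 per group) and 2.09-fold at 24 h (1.06 ± 0.05). At 12 h 91.7% of the 6 h log2 change was present, and at 24 h 42.7%. The table gives 1 value per array for Flt1 and does not separate the membrane-bound from the secreted form.

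Esm1 followed the same course with a steeper decline. Its log2 expression was 8.62, 8.70 and 8.64 in untreated cells, 11.44, 11.73 and 11.66 at 6 h, 11.45, 11.38 and 11.28 at 12 h, and 9.51, 9.48 and 9.38 at 24 h. The 6 h and 12 h arrays overlapped each other, and both sets lay far above the 24 h arrays, which in turn lay above the untreated ones. Esm1 RNA was 7.8-fold higher than in untreated cells at 6 h, 6.58-fold at 12 h and 1.75-fold at 24 h (log2 change 0.80 ± 0.07). Of its 6 h log2 change, 91.7% was present at 12 h and 27.1% at 24 h. Between 12 h and 24 h Esm1 fell by 1.91 (± 0.07) on the log2 scale and Flt1 fell by 1.22 (± 0.05).

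**Figure D2:**
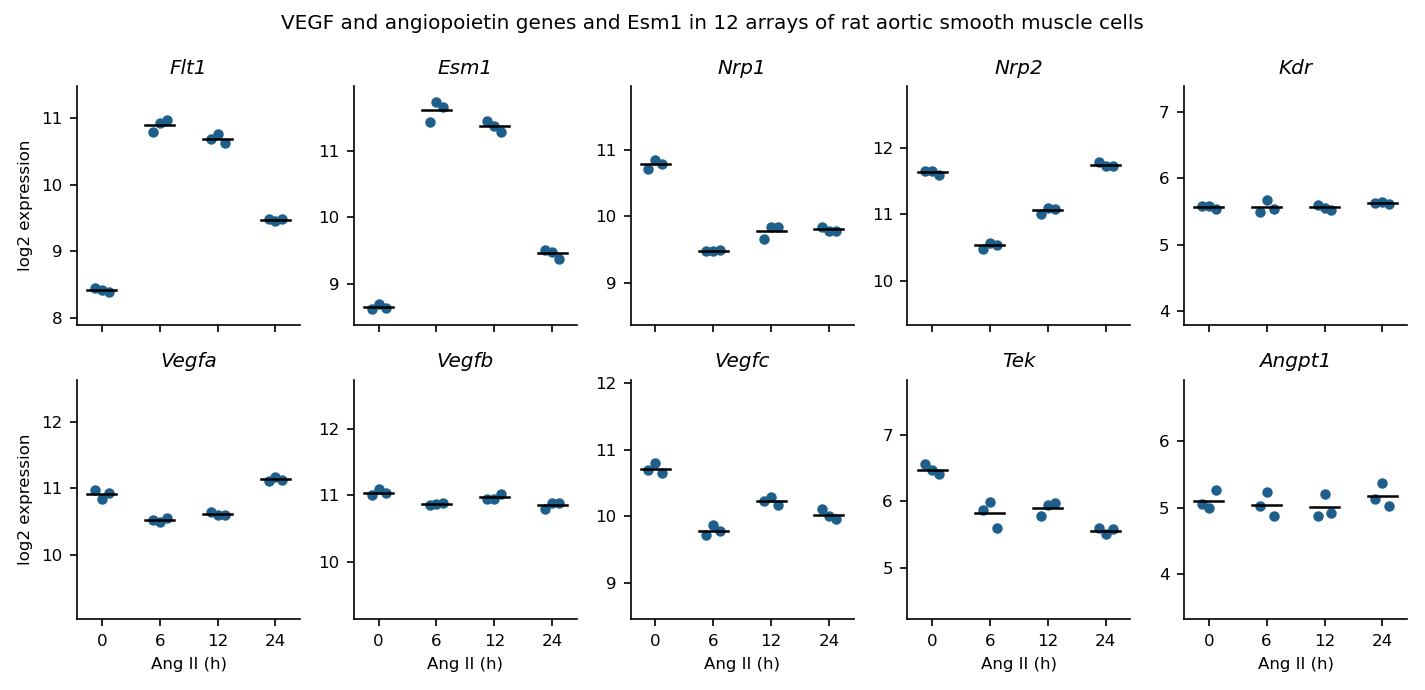
Log2 expression (vertical axis, the same span of units in every panel) of the 10 genes in each of 12 arrays against hours of Ang II (0, untreated); points are arrays and bars the mean of 3. Flt1 and Esm1 stand highest at 6 and 12 h, Nrp1, Nrp2 and Vegfc stand lowest at 6 h, and the group means of Kdr lie between 5.56 and 5.63.

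The remaining receptor of VEGF-A, Kdr, gave a low signal that hardly varied. The lowest of its 12 log2 values was 5.50 and the highest 5.68, all below the array medians. Its log2 change against untreated cells was 0.00 at 6 h (95% interval −0.10 to 0.11), −0.01 at 12 h (−0.11 to 0.10) and 0.06 at 24 h (−0.04 to 0.17), with adjusted p-values of 0.958, 0.929 and 0.348 (limma). The 3 arrays at 24 h lay above the 3 untreated ones by less than the test resolves. Flt4, the receptor of VEGF-C and VEGF-D, and the genes Pgf, Vegfd, Angpt2, Angpt4 and Tie1 below are relatives that were named after their values were seen. Flt4 rose at 6 h (log2 change 0.42 ± 0.08, adjusted p = 0.00104) and at 12 h (0.44 ± 0.08, adjusted p = 0.00113). Its log2 change at 24 h was 0.26 ± 0.08 (adjusted p = 0.0261), a call that was lost without untreated replicate 1 (adjusted p = 0.0908), untreated replicate 3 (0.0818) or 24 h replicate 3 (0.0866), and under quantile normalization (0.0613).

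Both neuropilin genes fell early, and they then parted. Nrp1, the co-receptor of VEGF-A and semaphorin 3A, had log2 values of 10.71, 10.84 and 10.78 in untreated cells, 9.48, 9.47 and 9.49 at 6 h, 9.65, 9.84 and 9.83 at 12 h, and 9.84, 9.78 and 9.78 at 24 h. All 9 Ang II arrays lay below the untreated ones. Nrp1 was 2.46-fold lower than in untreated cells at 6 h (log2 change −1.30 ± 0.06, adjusted p = 7.04e-09), 2.01-fold lower at 12 h (adjusted p = 1.09e-07) and 1.97-fold lower at 24 h (adjusted p = 1.74e-07). From 6 h to 24 h it regained 0.32 ± 0.06 on the log2 scale (adjusted p = 0.000622), and between 12 h and 24 h its log2 difference was 0.03 (95% interval −0.10 to 0.15).

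Nrp2, the neuropilin that binds VEGF-C and semaphorin 3F, started at 11.65, 11.64 and 11.59 and stood at 10.47, 10.57 and 10.54 at 6 h, 11.00, 11.09 and 11.08 at 12 h, and 11.78, 11.72 and 11.72 at 24 h. The 6 h arrays were the lowest, the 12 h arrays lay between, and the 24 h arrays lay just above the untreated ones. Nrp2 was 2.15-fold lower at 6 h (log2 change −1.10 ± 0.04, adjusted p = 3.91e-09) and 1.49-fold lower at 12 h (−0.57 ± 0.04, adjusted p = 1.48e-06). At 24 h its log2 change was 0.11 ± 0.04 (adjusted p = 0.0769), which passed the threshold with a filter on dim genes (0.0285), with median centring (0.0106) and with a trended, robust variance (0.019). It rose by 1.21 ± 0.04 from 6 h to 24 h (adjusted p = 2.41e-09), the largest difference between these times among the 8 genes tested.

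**Figure D3:**
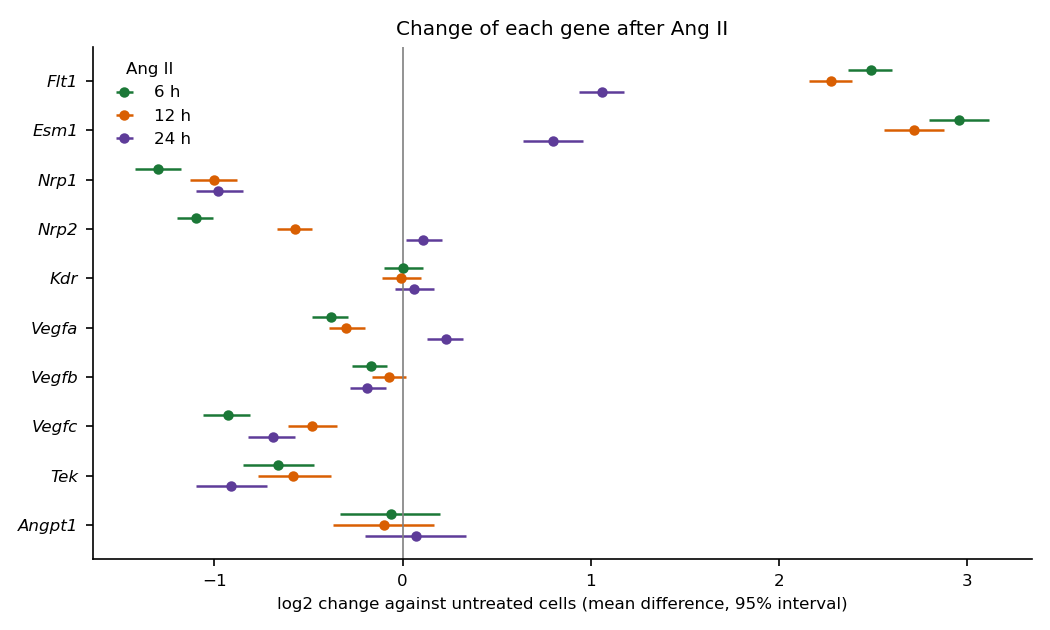
Log2 change against untreated cells (horizontal axis; mean difference with its 95% interval, 3 arrays per group) for each of the 10 genes after 6, 12 and 24 h of Ang II. Nrp1 stays near −1 at 12 and 24 h while Nrp2 moves from −1.10 through −0.57 to 0.11, and Vegfa moves from −0.38 to 0.23.

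Among the ligands, Vegfa, whose product is the main growth signal for vessels, fell first and rose later. Its log2 expression was 10.97, 10.83 and 10.92 in untreated cells, 10.52, 10.49 and 10.55 at 6 h, 10.64, 10.60 and 10.59 at 12 h, and 11.11, 11.17 and 11.12 at 24 h. The arrays of 6 h and 12 h lay below all untreated arrays, and those of 24 h above them. Vegfa was 1.31-fold lower at 6 h (log2 change −0.38 ± 0.04, adjusted p = 2.71e-05), 1.23-fold lower at 12 h (adjusted p = 0.000354) and 1.17-fold higher at 24 h (0.23 ± 0.04, adjusted p = 0.00237). The difference between 24 h and 6 h was 0.61 ± 0.04 (adjusted p = 6.1e-07).

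Vegfc, a growth factor for lymphatic vessels, fell most of the 3 listed VEGF ligands at each time. It had log2 values of 10.69, 10.79 and 10.65 in untreated cells, 9.71, 9.86 and 9.77 at 6 h, 10.23, 10.29 and 10.17 at 12 h, and 10.10, 10.00 and 9.95 at 24 h. All Ang II arrays lay below the untreated ones, with the lowest values at 6 h. It was 1.91-fold lower at 6 h (log2 change −0.93 ± 0.06, adjusted p = 1.43e-07), 1.39-fold lower at 12 h (adjusted p = 6.53e-05) and 1.62-fold lower at 24 h (adjusted p = 3.31e-06). Its level rose from 6 h to 12 h by 0.45 ± 0.06 (adjusted p = 0.00012). It fell by 0.21 from 12 h to 24 h (adjusted p = 0.0171), a call that was lost without 12 h replicate 2 (adjusted p = 0.064) or 24 h replicate 3 (0.0649).

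Vegfb, which binds FLT1 alone among the VEGF receptors, moved least of the 3 listed VEGF ligands. Its log2 values ran from 11.01 to 11.09 in untreated cells, 10.85 to 10.89 at 6 h, 10.95 to 11.02 at 12 h and 10.79 to 10.89 at 24 h. It was 1.13-fold lower at 6 h (log2 change −0.17 ± 0.04, adjusted p = 0.00752) and 1.14-fold lower at 24 h (−0.19 ± 0.04, adjusted p = 0.0058), while at 12 h the log2 change was −0.07 (95% interval −0.16 to 0.02, adjusted p = 0.283). With each array centred on its median the 24 h call was lost (adjusted p = 0.0548).

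Pgf, the gene of placental growth factor, which binds FLT1 and not KDR, crossed from above to below the untreated level. It had log2 values of 9.76, 9.70 and 9.89 in untreated cells, 10.40, 10.38 and 10.48 at 6 h, 9.76, 9.69 and 9.73 at 12 h, and 9.04, 9.12 and 9.21 at 24 h. The 6 h arrays were all higher and the 24 h arrays all lower than the untreated ones, and the 12 h arrays overlapped them. Pgf rose at 6 h (log2 change 0.64 ± 0.06, adjusted p = 4.44e-06) and fell at 24 h (−0.66 ± 0.06, adjusted p = 5.83e-06), the opposite order to Vegfa. Vegfd fell at 12 h (−0.52 ± 0.08, adjusted p = 0.000343) and at 24 h (−0.67 ± 0.08, adjusted p = 4.36e-05), and its log2 change at 6 h was 0.17 ± 0.08 (adjusted p = 0.133, or 0.0461 under quantile normalization).

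**Figure D4:**
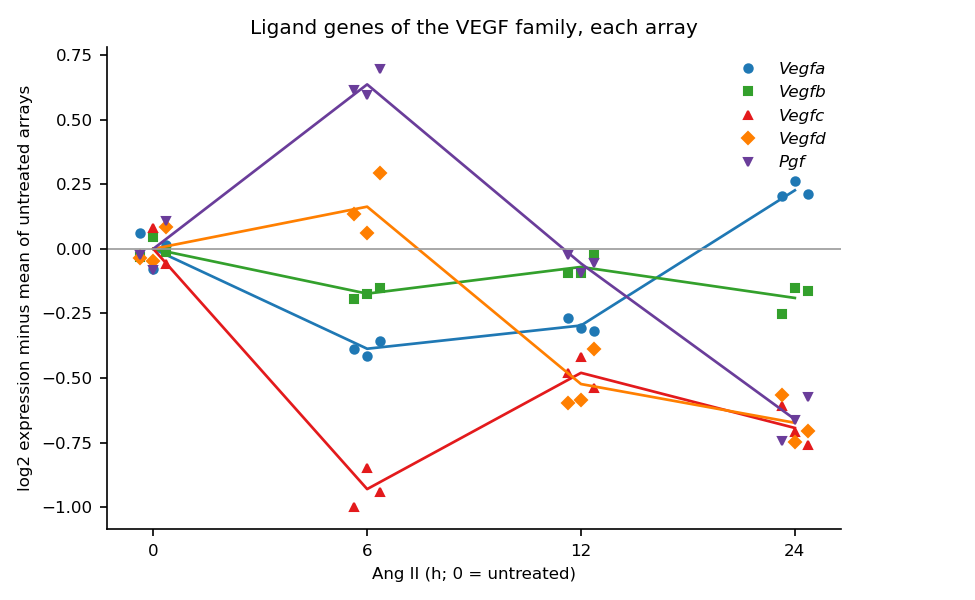
Log2 expression minus the mean of the 3 untreated arrays (vertical axis) for 5 VEGF family ligand genes against hours of Ang II; symbols are arrays and lines join group means. Pgf goes from 0.64 at 6 h to −0.66 at 24 h while Vegfa goes from −0.38 to 0.23.

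In the angiopoietin branch, the receptor gene Tek fell from a level that was already low. Its log2 values were 6.55, 6.46 and 6.40 in untreated cells, 5.86, 5.98 and 5.60 at 6 h, 5.78, 5.94 and 5.97 at 12 h, and 5.59, 5.50 and 5.58 at 24 h. All 12 values lay below the array medians, and every Ang II array lay below every untreated array. Tek was 1.58-fold lower at 6 h (log2 change −0.66 ± 0.09, adjusted p = 7.97e-05), 1.49-fold lower at 12 h (adjusted p = 0.000368) and 1.88-fold lower at 24 h (adjusted p = 9.78e-06). How far background signal sets values at this level was not tested. The difference between 24 h and 6 h (−0.25 ± 0.09, adjusted p = 0.037) was lost without 6 h replicate 1 (adjusted p = 0.108), 6 h replicate 2 (0.133), 24 h replicate 1 (0.0602), 24 h replicate 2 (0.112) or 24 h replicate 3 (0.0641), with all probe sets tested (0.0601), with median centring (0.0861) and with the 2 groups alone (0.0751). The difference between 24 h and 12 h (−0.33 ± 0.09, adjusted p = 0.0141) was lost without 12 h replicate 3 (adjusted p = 0.0543) or 24 h replicate 2 (0.0521).

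Angpt1, the ligand gene for TEK, ranged from 4.88 to 5.37 over the 12 arrays, below the array medians throughout, with overlapping groups. Its log2 change was −0.06 at 6 h (95% interval −0.33 to 0.20), −0.10 at 12 h (−0.37 to 0.17) and 0.07 at 24 h (−0.20 to 0.34), and the adjusted p-values were 0.77, 0.623 and 0.689. Angpt2, whose product mostly opposes angiopoietin 1 at TEK, fell at 6 h (log2 change −0.69 ± 0.10, adjusted p = 0.000121), 12 h (−0.67 ± 0.10, adjusted p = 0.000266) and 24 h (−0.52 ± 0.10, adjusted p = 0.0016). For Angpt4 and the related receptor gene Tie1 the log2 changes at the 3 times lay between −0.02 and 0.04 and between −0.05 and 0.05, and none passed.

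At 6 h, 6 of the 8 tested genes had fallen and 0 had risen (limma, adjusted p under 0.05), where 17.2% of all 14506 genes fell, 18.6% rose and 35.8% changed in either direction. The median log2 change of the 8 was −0.52 against 0.01 over all genes. The treated and untreated arrays did not overlap for 6 of the 8, and for 47.2% of all genes. At 12 h 5 fell and 0 rose, where 13.3% of all genes fell and 13.3% rose, with a median of −0.39 against 0.01, and 5 of the 8 did not overlap (40.8% of all genes). At 24 h 4 fell and 1 rose, where 14.7% of all genes fell and 15.3% rose, with a median of −0.06 against 0.05, and 7 of the 8 did not overlap (44.8% of all genes). With each array centred on its median the split of all genes at 24 h became 3559 higher and 1713 lower, in place of 2222 and 2136. The 3 comparisons share the untreated arrays, so their counts are not independent of each other. Between 6 h and 12 h 3 of the 8 rose (13.1% of all genes did, 13.9% fell and 27.0% changed), namely Vegfc, Nrp1 and Nrp2. From 12 h to 24 h Vegfa and Nrp2 rose and Vegfc and Tek fell, where 14.0% of all genes rose, 13.5% fell and 27.5% changed (63.2% of the called genes rose with median centring, against 50.9%). Between 6 h and 24 h Vegfa, Vegfc, Nrp1 and Nrp2 rose and Tek fell, where 19.4% of all genes rose, 19.8% fell and 39.2% changed.

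The genes whose 12 values ran most like those of Flt1 were sought among 492 genes whose group means span at least 1 log2 unit. They were Fst, the gene of the activin antagonist follistatin (r = 0.9937), Ccn4 (0.991), Ggta1 (0.9905), Esm1 (0.9868) and Anxa3 (0.9829). For Esm1 they were Ccn4 (r = 0.9921), the DNA repair gene Ercc1 (0.9915), Olr1, the gene of the receptor for oxidised low-density lipoprotein (0.9889), Ggta1 (0.9878) and Flt1 (0.9868). Ccn4 and Ggta1 stood on both lists, and Flt1 and Esm1 on each other's. Flt1 and Esm1 were both singled out for their strong rise in these arrays. Their place on each other's list therefore follows in part from that choice. For Nrp1, the gene with the largest fall among the 8, they were Smad6, an inhibitor of BMP signalling (r = 0.9872), the PDGF receptor gene Pdgfra (0.9869), Apba1 (0.9824), Arhgef39 (0.9798) and Sord (0.9775). Each r runs over the same 12 arrays, which fall into 4 groups, so it mostly describes 4 group means and carries no p-value.

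Genes around the system were described through 8 lists with 131 measured genes. The lists were chosen with earlier results of these data known, so their shares are a description and no independent test. Of these, 45 rose and 33 fell at 6 h (59.5% together, against 35.8% of all genes), 30 rose and 36 fell at 12 h (50.4% against 26.6%), and 30 rose and 42 fell at 24 h (55.0% against 30.0%). Their median log2 change was 0.05, 0.01 and 0.02 against 0.01, 0.01 and 0.05 over all genes. Over all genes 18.6% rose and 17.2% fell at 6 h, 13.3% and 13.3% at 12 h, and 15.3% and 14.7% at 24 h. The counts of the single lists below are to be read against these shares.

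The semaphorins and plexins include other ligands and partners of neuropilins, though not every gene on the list is one. Of 10 measured, 2 rose and 6 fell at 6 h (median log2 change −0.23). At 12 h 2 rose and 5 fell (−0.18), and at 24 h 1 rose and 4 fell (−0.19). Sema3a, whose product is the classical ligand of neuropilin 1, fell, with log2 changes of −1.57 at 6 h, −1.46 at 12 h and −1.24 at 24 h (each ± 0.08). The 1 gene that rose at 24 h was not called without untreated replicate 1, 2 or 3 or 24 h replicate 1 or 3. Nor was any called with a replicate block, with all probe sets tested or with the 2 groups alone. Without 12 h replicate 3, with a filter on dim genes, with median centring or with a trended, robust variance 2 rose. Sema3d (−0.35, −0.56 and −0.49 at the 3 times, each ± 0.05) and Plxna3 (−0.33, −0.26 and −0.20, each ± 0.04) fell throughout. Plxnd1 fell at 6 h (−0.43 ± 0.08) and 12 h (−0.25 ± 0.08), as did Sema6d (−0.44 ± 0.10 and −0.49 ± 0.10), while Plxna2 rose at 6 h (0.44 ± 0.06) and 12 h (0.58 ± 0.06). Sema3e, whose product binds plexin D1 directly, rose at 6 h (0.32 ± 0.08) and 12 h (0.72 ± 0.08). Its log2 change at 24 h was −0.28 ± 0.08 (adjusted p = 0.0186), a call that was lost without untreated replicate 1 (0.0555), untreated replicate 2 (0.0703) or 24 h replicate 2 (0.0768).

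Other angiogenic ligands went both ways. Of 18 genes 6 rose and 3 fell at 6 h, 5 rose and 4 fell at 12 h, and 4 rose and 6 fell at 24 h, with median log2 changes of 0.04, 0.00 and 0.04. Fgf2, a basic fibroblast growth factor, rose by 1.54 ± 0.06 at 6 h, 0.74 ± 0.06 at 12 h and 0.82 ± 0.06 at 24 h. Pdgfa, whose product attracts mesenchymal cells, rose at all 3 times (0.99, 0.63 and 0.60, each ± 0.04), and Pdgfb was called at 6 h alone (1.01 ± 0.07). Angptl2, an angiopoietin-like ligand, fell at 6 h (−1.53), 12 h (−1.27) and 24 h (−0.87, each ± 0.07). Adm, the adrenomedullin gene, fell at all 3 times (−0.48, −0.88 and −0.83, each ± 0.07), and Ptn fell at 24 h (−1.08 ± 0.09).

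Of 16 other vascular receptors and co-receptors, 8 rose and 2 fell at 6 h, 8 rose and 3 fell at 12 h, and 7 rose and 3 fell at 24 h, with medians of 0.17, 0.16 and 0.13. Itga5, a fibronectin receptor chain, rose by 1.33 ± 0.04, 0.99 ± 0.04 and 0.70 ± 0.04 at the 3 times. S1pr1, a sphingosine 1-phosphate receptor, rose at 6 h (1.15 ± 0.05), less at 12 h (0.33 ± 0.05), and at 24 h (1.08 ± 0.05). Met, the receptor gene for hepatocyte growth factor, fell (−1.79, −0.95 and −1.03, each ± 0.06), while its ligand gene Hgf rose at 12 h (0.96 ± 0.07) and 24 h (0.55 ± 0.07). Pdgfra fell too (−1.39, −1.24 and −1.15, each ± 0.06).

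Among regulators of Vegfa transcription and mRNA decay, 4 of 16 rose and 7 fell at 6 h, 3 rose and 4 fell at 12 h, and 4 rose and 6 fell at 24 h (medians −0.04, −0.04 and −0.14). The 6 h falls numbered 4 without untreated replicate 3, and the 6 h rises 2 without untreated replicate 1, 6 h replicate 2 or 6 h replicate 3 and with the 2 groups alone. Zfp36, whose product binds AU-rich elements in mRNA and speeds decay, fell at 6 h (−0.44), 12 h (−1.19) and 24 h (−0.56, each ± 0.08). Its relative Zfp36l1 fell as well (−0.60, −0.79 and −0.33, each ± 0.04). Egln3, an oxygen-sensing prolyl hydroxylase gene, fell at all 3 times (−0.45, −0.95 and −0.58, each ± 0.06), Stat3 rose (0.66, 0.55 and 0.56, each ± 0.04), and Sp1 fell at 6 h (−0.26 ± 0.08) and 24 h (−0.41 ± 0.08). Of 14 hypoxia targets 6 rose and 0 fell at 6 h, 6 rose and 1 fell at 12 h, and 5 rose and 5 fell at 24 h (medians 0.09, 0.09 and 0.10). The 1 fall at 12 h was not called without untreated replicate 2 or 3 or 12 h replicate 1 or 2. Hk2, a hexokinase gene, rose at 6 h (1.68 ± 0.07) and fell at 24 h (−0.35 ± 0.07). The glucose transporter gene Slc2a1 rose at all 3 times (0.74, 0.26 and 0.31, each ± 0.06), as did Ero1a (0.53, 0.31 and 0.20, each ± 0.04) and Ankrd37 (0.51, 0.43 and 0.54, each ± 0.11). Ldha rose at 6 h (0.29 ± 0.06) and 12 h (0.35 ± 0.06). Bnip3 rose at 12 h (0.40 ± 0.04) and 24 h (0.28 ± 0.04), as did Ndrg1 (0.19 ± 0.04 and 0.66 ± 0.04), and Ddit4 fell at 24 h (−0.34 ± 0.07).

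Of 17 genes known to respond to VEGF in endothelial cells, 8 rose and 7 fell at 6 h, 3 rose and 10 fell at 12 h, and 4 rose and 8 fell at 24 h (medians −0.12, −0.52 and −0.20). The early transcription factor genes Egr1, Egr2, Egr3 and Nr4a1 supplied the largest changes at 12 h and 24 h, all downward, with Egr1 at −2.96 ± 0.07 and Nr4a1 at −2.61 ± 0.11 at 24 h. Egr3, Egr2 and Nr4a1 had already fallen at 6 h, and with Plau they were the largest changes of the list then. The Egr1 arrays at 6 h (12.19 to 12.34) also lay below the untreated ones (13.51 to 13.57). Plau, the urokinase gene, rose at 6 h (1.52 ± 0.08) and 12 h (1.02 ± 0.08). Of 24 mediators of VEGF receptor signalling, 9 rose and 4 fell at 6 h, 3 rose and 2 fell at 12 h, and 3 rose and 5 fell at 24 h (medians 0.07, 0.03 and 0.03). At 12 h both counts were below the shares over all genes (13.3% rose and 13.3% fell). With median centring 6 rose at 24 h, with a trended, robust variance 6 rose at 12 h, and without untreated replicate 2 or 24 h replicate 2 the falls at 24 h numbered 3. Plcg1, which VEGF receptors engage directly, fell at the 3 times (−0.53, −0.41 and −0.30, each ± 0.04). Map2k1, a MAP kinase kinase gene, rose (0.76, 0.98 and 0.36, each ± 0.05), and the phosphatase gene Ptpn1 rose at 6 h (1.09 ± 0.07). Src fell at all 3 times (−0.39, −0.31 and −0.21, each ± 0.05), while Grb14 was called at 6 h alone (−0.67 ± 0.04) and Vav2 at 24 h alone (−0.50 ± 0.07). Hspb1, a small heat shock protein gene, rose throughout (0.32, 0.57 and 0.69, each ± 0.05).

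Of 16 genes of angiogenesis inhibitors and feedback regulators, 2 rose and 4 fell at 6 h, 0 rose and 7 fell at 12 h, and 2 rose and 5 fell at 24 h (medians 0.01, −0.08 and 0.02). At 6 h the share that rose was below that over all genes (18.6%) and the share that fell was above it (17.2%). With median centring 5 rose at 24 h in place of 2, and the falls at 6 h numbered 2 without untreated replicate 2 or any 1 of the 3 arrays of 6 h and with all probe sets tested. Spry2, a feedback inhibitor of receptor tyrosine kinase signalling, rose at 6 h (0.78 ± 0.07) and fell at 12 h (−0.46 ± 0.07) and 24 h (−0.70 ± 0.07). Spry4 likewise rose at 6 h (0.40 ± 0.07) and fell at 12 h (−0.51 ± 0.07) and 24 h (−0.27 ± 0.07). Adamts1, a protease that binds VEGF-A, fell at 12 h (−0.70 ± 0.05) and 24 h (−0.64 ± 0.05), Ccn2 fell at 6 h (−0.47 ± 0.05) and 12 h (−0.17 ± 0.05), and Col4a3 rose at 24 h (0.37 ± 0.05). Spry1 fell at 12 h (−0.54 ± 0.06) and 24 h (−0.43 ± 0.06). Its log2 change at 6 h was −0.18 ± 0.06 (adjusted p = 0.0313), a call lost without any 1 of untreated replicate 1 or 2 or the 3 arrays of 6 h (0.0598 to 0.0996) and with all probe sets tested (0.0542).

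**Figure D5:**
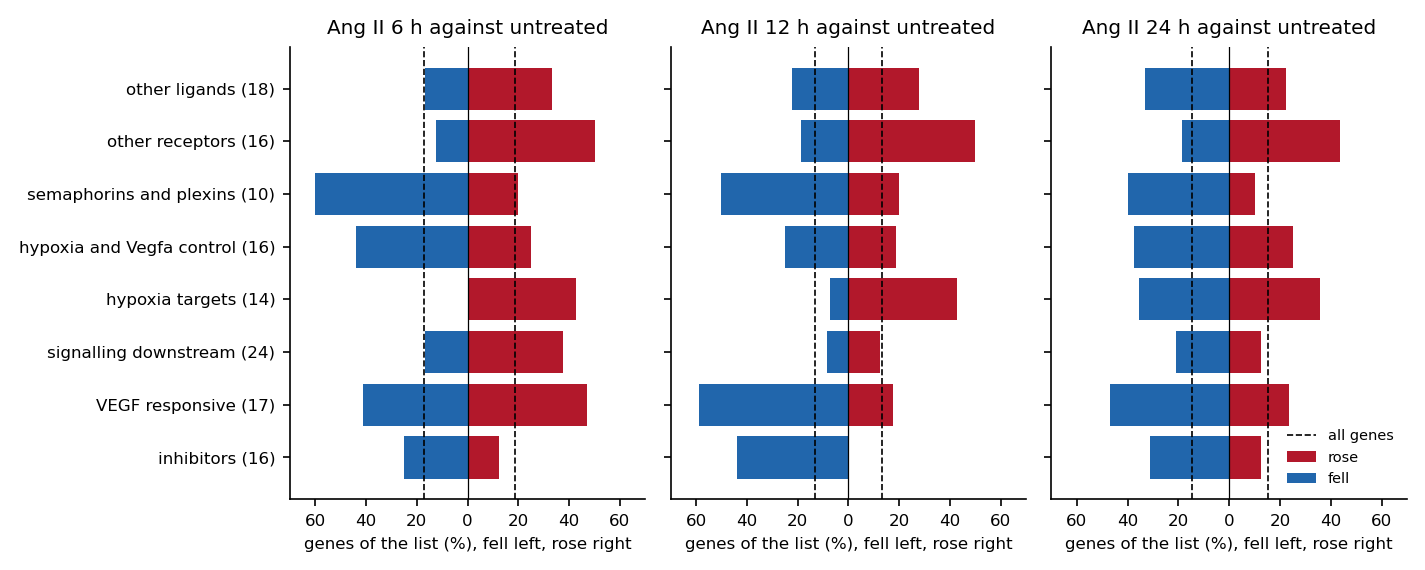
Percent of the measured genes of 8 lists (number in brackets) that fell (left, blue) or rose (right, red) against untreated cells after 6, 12 and 24 h of Ang II (limma, adjusted p under 0.05); dashed lines give the same percentages over all 14506 genes. Semaphorins and plexins fell in 6 of 10 cases at 6 h, and VEGF-responsive genes fell in 10 of 17 at 12 h.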

How the data were processed

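RNA from 12 samples was measured on Affymetrix Rat Gene 1.0 ST arrays. The deposited values are log2 expression, with 1 value for each probe set on each array. The submitters' processing notes name RMA and Partek, without versions or roles, and further filters are not stated. Of 29214 probe sets, 15310 had 1 gene symbol in the platform annotation, 323 had several or none and 13581 were unlisted. Where several probe sets named a gene (527 genes), the one with the highest mean was kept.

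For all 12 arrays together a model of 4 group means was fitted in limma 3.58.1 (R 4.3.3; 8 residual and 3.37 prior degrees of freedom), two-sided, with Benjamini-Hochberg adjustment over 14506 genes and a threshold of 0.05. Errors are standard errors. Data were simulated for 24 h against untreated cells (14506 genes, 50 changed at each fold). Of genes changed 1.25-fold 54% were recovered, of those changed 1.5-fold 84% and of those changed 2-fold 100%. The simulation changed a far smaller share of genes than the 30.0% called at 24 h. Adjusted p-values depend on that share, so recovery in the arrays may differ. The 10 genes and all lists were chosen with earlier results of these data known. Named genes are the 10, up to 4 called genes per list and comparison with the largest change, and the 5 most like Flt1, Esm1 and the gene with the largest fall; others are said to be named after their values were seen. Alternatives were a fit of the 2 groups alone, a replicate block, omission of each array in turn, removal of genes under the median level, averaging over probe sets, a test of every probe set, quantile normalization, median centring, and a trended, robust variance. Promoter windows come from RefSeq (GRCr8), searched in Python 3.11.15.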

Additional observations from a re-analysis of the deposited data

Results flagged for a closer look

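By the limma test of 24 h against 6 h, the changes against untreated cells differed for 5 of the 8 tested genes. They also differed for Pgf and Vegfd, relatives named after their values were seen, and not for Angpt2, Angpt4, Flt4 and Tie1. The log2 difference (24 h minus 6 h) was 1.21 for Nrp2 (adjusted p = 2.41e-09), 0.61 for Vegfa (6.1e-07), 0.32 for Nrp1 (0.000622) and 0.24 for Vegfc (0.00602). It was −1.30 for Pgf (1.49e-08), −0.84 for Vegfd (4.68e-06) and −0.25 for Tek (0.037). The Tek call was lost under the alternatives given above. Of all genes 39.2% passed this comparison. Vegfa and Pgf changed sign between the times in opposite order, with both changes of each past the threshold.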

How the results depend on the processing

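The number of the 8 tested genes called stayed within 1.5 times of its value under every alternative run. Leaving out 1 array at a time gave 6 at 6 h, 5 at 12 h and 5 at 24 h against untreated cells, 3 for 12 h against 6 h, 3 to 4 for 24 h against 12 h and 4 to 5 for 24 h against 6 h. The replicate number showed little pairing of the arrays. Over 18 same-numbered pairs the correlation of deviations from the group means was −0.10 to 0.30 (median 0.03), and 3 exceeded 0.1. Over 36 other-numbered pairs it was −0.28 to 0.26 (median −0.02), and 5 exceeded 0.1. With the replicate block 6, 5 and 5 genes were called against untreated cells and 3, 4 and 5 between times, as without it, and all genes called at 6 h numbered 5059 against 5191. No log2 change of the 10 genes turned its direction where either value passed. The changes that gained or lost a call are given with their values above, except that Vegfb also passed for 12 h against 6 h and for 24 h against 12 h with the median filter (0.0411 and 0.0204) and with the trended, robust variance (0.0414 and 0.0167), and that Flt4 passed for 24 h against 12 h without 6 h replicate 2 (0.0407) and for 24 h against 6 h under quantile normalization (0.0403). For Flt1 the log2 change ran from 2.45 to 2.54 at 6 h and from 1.05 to 1.12 at 24 h, and for Esm1 from 2.90 to 3.05 and from 0.78 to 0.86. The median filter removed Kdr, Tek and Angpt1 from the test. It also lowered list counts by leaving fewer genes, such as 3 in place of 6 semaphorin and plexin genes that fell at 6 h and 5 in place of 8 VEGF-responsive genes that rose. Of 1560 list counts under alternatives, 69 moved by over 1.5 times, most of them counts under 5. Kdr, Tek and Angpt1 lay below the array medians, and their signal was not set against a measured background. The same holds for some other named genes. Among them, Sema6d (at most 6.86) and Ankrd37 (at most 7.17) lay below the medians on all 12 arrays, and Angpt2 did at 6 h and 12 h (6.77 to 7.02).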

Other observations

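Erg, an ETS transcription factor gene used here as an endothelial marker, was above the array medians on all 12 arrays. It fell at 6 h (log2 change −0.34 ± 0.07, limma adjusted p = 0.00227) and 12 h (−0.25 ± 0.07, adjusted p = 0.0222) and rose at 24 h (0.68 ± 0.07, adjusted p = 1.82e-05). Among 18 endothelial markers, 1 rose and 1 fell at 6 h, 2 rose and 1 fell at 12 h, and 5 rose and 0 fell at 24 h (of all genes 18.6% rose and 17.2% fell at 6 h, 13.3% and 13.3% at 12 h, and 15.3% and 14.7% at 24 h). The 5, named after their values were seen, were Erg, Esam (0.40 ± 0.06), Cldn5 (0.29 ± 0.08), Sox17 (0.25 ± 0.06) and Tal1 (0.23 ± 0.07). Of these, Cldn5, Sox17 and Tal1 lay below the array medians on all 12 arrays, and how far background signal sets such values was not tested. With the filter on dim genes the number that rose was 0 at 6 h, 0 at 12 h and 1 at 24 h. Without untreated replicate 2 or 3 the number that rose at 24 h was 3. Of the smaller counts, the rises at 6 h numbered 0 without untreated replicate 3 or 6 h replicate 3, the rises at 12 h numbered 0 without untreated replicate 1 and 1 without untreated replicate 3 or 12 h replicate 2, and the fall at 12 h was not called without untreated replicate 2 or 3 or 12 h replicate 1 or 2. Of 11 smooth muscle markers 4 rose and 3 fell at 6 h (median log2 change 0.04). At 12 h 6 rose and 1 fell (0.12), or 2 fell under quantile normalization. At 24 h 10 rose and 0 fell (0.44). Of 8 pericyte markers 2 rose and 2 fell at 6 h, 2 rose and 3 fell at 12 h, and 2 rose and 1 fell at 24 h. Of 10 fibroblast markers 0 rose and 5 fell at 6 h, and 0 rose and 6 fell at 12 h and at 24 h. Of 11 leukocyte markers, 0 changed at 6 h and at 12 h and 1 fell at 24 h, where median centring gave 2 that rose.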
